A study of Mus musculus with 2 samples.

Results

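The thrombospondins are a family of secreted matrix proteins encoded by Thbs1, Thbs2, Thbs3, Thbs4 and Comp, and these 5 genes were taken by symbol from the 19465 genes measured in heart sections of TOP2B transgenic and control mice. All 5 members were found, each with at least 20 unique molecular identifiers (UMIs) over both sections. Thrombospondins do not build the matrix scaffold themselves. They bind collagens, growth factors, proteases and cell surface receptors, and are therefore called matricellular proteins. Thbs1 and Thbs2 form trimers, carry the type 1 repeats that bind CD36, and restrain vessel growth, while Thbs3, Thbs4 and Comp form pentamers and lack these repeats. In the heart, Thbs1 is known as an activator of latent TGF-β, Thbs4 as a gene induced by overload, and Comp, named for its abundance in cartilage, as a collagen-binding protein also found in fibrous scars.

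Expression was measured with Visium CytAssist, in which probes bound to the transcripts of a formalin-fixed section are transferred to a slide with barcoded spots and counted by UMI. There was 1 control section from an α-MHC-MerCreMer+/− mouse and 1 section from an α-MHC-MerCreMer+/− hTOP2B LSL/− mouse, called transgenic here. Both mice carried the tamoxifen-dependent Cre recombinase MerCreMer, driven in cardiomyocytes by the α-MHC promoter, and both received a single intraperitoneal dose of tamoxifen at 80 mg/kg. The study's single-dose animals were 6 weeks old. Only the transgenic mouse also carried the human TOP2B cDNA at Rosa26, behind a stop cassette that Cre removes and under the CAG promoter. The human transcript need not be read by mouse probes, and mouse Top2b was at 106 CPM (UMIs per 1000000 UMIs of the section) in control and 102 CPM in transgenic tissue, so this gene did not check the genotype. The time from tamoxifen to harvest is not given in the sources used here.

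The control section held 1256 spots with 14376300 UMIs and the transgenic section 924 spots with 12953389 UMIs, at medians of 11336 and 14531 UMIs per spot. A spot covers a small region that can hold several cells, so fewer cells of a type and less RNA per cell cannot be told apart. With 1 section per condition no difference has a replicate check and no test was run. Brackets give 95% intervals, which cover counting error only. The labelled heart tissue was borne out by cardiomyocyte markers, which held 8.39% of control and 4.51% of transgenic UMIs with none of the 9 measured markers at 0. Fibroblast markers held 0.113% and 0.159% of UMIs. Erythroid markers differed more, with 0.215% of control and 2.04% of transgenic UMIs. The part of these tissue differences in the results on thrombospondins was not tested, apart from the values given beside them.

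All 5 thrombospondins were higher in the transgenic section. Summed over the family, UMIs went from 852 in the control to 7783 in the transgenic section, or from 59.3 CPM [55.4 to 63.4] to 601 CPM [588 to 614]. Each member passed a 2-fold difference, a mark passed upward by 13.7% of the 15236 genes with at least 20 UMIs. Thbs1, Thbs4 and Comp also passed 8-fold, as 1.12% of genes did. Thbs1 did so narrowly, at 8.29-fold [7.21 to 9.57], and not under several alternatives given at the end. The median log2 ratio of all these genes was 0.20. Comp and Thbs4 formed a high pair, and below them Thbs1 was highest and Thbs2 lowest.

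Among the trimeric members, Thbs1 was counted 224 times in the control (15.6 CPM [13.6 to 17.8]) and 1673 times in the transgenic section (129 CPM [123 to 135]). Its transgenic over control log2 ratio was 3.05 [2.85 to 3.26], or 8.29-fold, and 161 genes had a higher ratio. Thbs2, whose loss is known to weaken collagen fibrils, went from 383 UMIs (26.6 CPM [24.0 to 29.4]) to 917 (70.8 CPM [66.3 to 75.5]). Its log2 ratio of 1.41 [1.24 to 1.59] was the smallest in the family, and 1096 genes exceeded it. When each section was limited to the 50% of its spots with the highest share of cardiomyocyte UMIs, it was 0.67 and so below 2-fold. These spots were ranked within each section, so their cardiomyocyte content was not matched between sections.

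Among the pentameric members, Thbs3, known in cardiomyocytes for its hold on integrin trafficking, went from 158 UMIs (11.0 CPM [9.34 to 12.8]) to 638 (49.3 CPM [45.5 to 53.2]). This was a log2 ratio of 2.16 [1.91 to 2.42]. Thbs4 was nearly missing from the control section and plentiful in the transgenic one. It was counted 24 times in the control (1.67 CPM [1.07 to 2.48]) and 1133 times in the transgenic section (87.5 CPM [82.4 to 92.7]), a log2 ratio of 5.71 [5.13 to 6.36]. Comp was counted 63 times in the control (4.38 CPM [3.37 to 5.61]) and 3422 times in the transgenic section (264 CPM [255 to 273]), a log2 ratio of 5.91 [5.55 to 6.30], or 60.3-fold. Only 9 genes had a higher ratio than Comp and 12 a higher one than Thbs4. In those same cardiomyocyte-rich spots these ratios were smaller, at 4.24 for Comp and 4.85 for Thbs4.

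The control level of Thbs4 lay close to the background of the assay. Of 12 genes typical of other organs, such as rhodopsin and insulin 2, the highest had 21 UMIs in the control section against 24 for Thbs4. The fold of Thbs4 therefore rests on a control count that this assay could hardly tell from background, and with 1 CPM added to both sections its log2 ratio was 5.05.

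**Figure D1:**
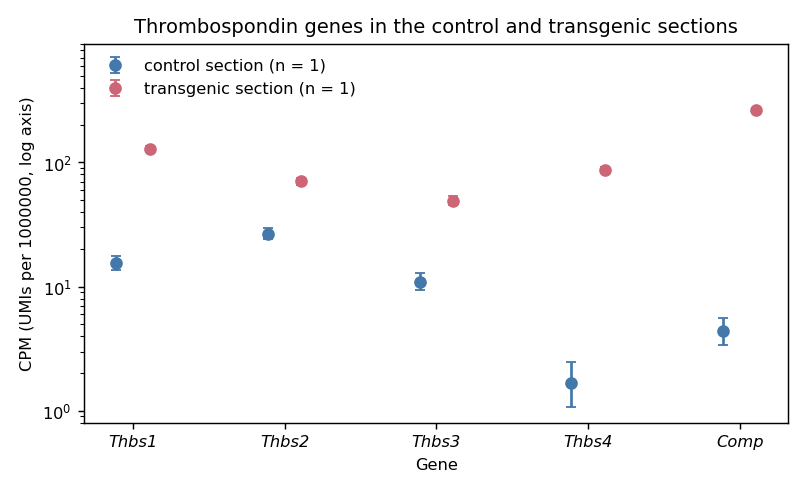
UMIs per 1000000 of each thrombospondin gene (log axis) in the control and the transgenic section, 1 section each, with exact Poisson 95% intervals of the counts. Every transgenic point lies above its control point, from 2.66-fold for Thbs2 to 60.3-fold for Comp.

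The ratios differed between members by more than counting error in 9 of 10 pairs. The differences in log2 ratio do not depend on how the sections are scaled against each other. Comp exceeded Thbs2 by 4.50 [4.11 to 4.90] and Thbs4 exceeded Thbs1 by 2.66 [2.04 to 3.28]. Closer together, Thbs1 exceeded Thbs3 by 0.89 [0.57 to 1.21], and Thbs3 exceeded Thbs2 by 0.75 [0.45 to 1.06]. Comp and Thbs4 were the pair whose order was not settled, with a difference of 0.20 [-0.48 to 0.89].

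The make-up of the family's UMIs changed accordingly. Thbs2 went from 45.0% of family UMIs in the control to 11.8% in the transgenic section, while Comp went from 7.39% to 44.0%. Thbs4 went from 2.82% to 14.6%. Thbs1 moved less, from 26.3% to 21.5%, and Thbs3 went from 18.5% to 8.20%. The number of probes per gene is not stated, so these shares compare 1 gene between sections and do not rank the genes' RNA levels.

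The promoters of the members at the ends of this range that had a reference sequence, Thbs4 and Thbs2, are shown because both genes were higher in the same section by very different folds. The 250 bases before each start were taken from RefSeq on the GRCm38.p6 build, a build older than the GRCm39 in the submitters' processing notes, and 3 of the 5 members matched. Capitals mark literal matches on either strand to the letters of the AP-1 (TGANTCA), TEAD (CATTCC), SMAD (CAGAC), SP1 (GGGCGG) and TATA box (TATAAA) motifs. The sequences run 5′ to 3′ on the gene's strand, minus in both cases.
Thbs4, chr13:92794819-92795068: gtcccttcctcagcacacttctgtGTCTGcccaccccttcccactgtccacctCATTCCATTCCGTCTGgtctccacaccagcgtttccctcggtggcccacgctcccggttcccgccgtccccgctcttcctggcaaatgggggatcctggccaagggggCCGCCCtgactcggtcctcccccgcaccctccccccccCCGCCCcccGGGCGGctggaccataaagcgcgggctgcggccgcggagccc
Thbs2, chr17:14694263-14694512: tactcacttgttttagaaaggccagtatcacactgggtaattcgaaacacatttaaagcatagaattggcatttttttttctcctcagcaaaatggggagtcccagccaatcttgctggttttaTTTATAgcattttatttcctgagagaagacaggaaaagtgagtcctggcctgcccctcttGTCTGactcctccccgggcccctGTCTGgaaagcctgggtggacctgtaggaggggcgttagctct

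The letters differed between these 2 windows. Thbs4 was 70.8% G or C and Thbs2 46.8%, around a median of 52.4% over 32851 mouse promoter windows of the same length. Thbs4 held 2 overlapping TEAD matches, 197 and 192 bases before the start, a match found in 12.6% of all windows, and Thbs2 held none. Each held 2 SMAD matches, which 42.2% of windows hold at least once. Thbs4 also held 3 SP1 matches (32.7% of windows), and Thbs2 a TATA box match 126 bases before the start (12.4% of windows). Neither held the AP-1 letters, found in 6.75% of windows. The window of Thbs3 held 1 SP1 match and none of the other 4 motifs. A match of letters is a description and not a bound site.

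The thrombospondins were counted in more spots of the transgenic section as well as at higher levels. Thbs1 had a UMI in 14.6% of control spots [12.7 to 16.7] and in 71.1% of transgenic spots [68.1 to 74.0]. Comp went from 4.46% [3.39 to 5.75] to 55.4% [52.1 to 58.6] of spots, and Thbs4 from 1.91% [1.23 to 2.83] to 41.6% [38.4 to 44.8]. Thbs2 and Thbs3, the least changed members, went from 26.2% to 51.2% and from 11.5% to 46.0%. Transgenic spots were deeper, so shares were also taken after every spot was thinned to 8000 UMIs. Of the control spots 131 were shallower and left out, and of the transgenic spots 75. Thinned, the shares were 9.96% and 53.8% for Thbs1, 17.7% and 38.0% for Thbs2, and 8.09% and 31.0% for Thbs3. For Thbs4 they were 1.07% and 33.6%, and for Comp 2.84% and 50.1%. The 12 genes of other organs had a UMI in at most 1.59% of control and 2.16% of transgenic spots, so only the control share of Thbs4 came near them.

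Within the transgenic section the members were spread unevenly. A single spot held up to 39 UMIs of Comp, 29 of Thbs1 and 23 of Thbs4, but no more than 10 of Thbs2 and 6 of Thbs3. No control spot held more than 1 UMI of Thbs4 or more than 3 of Comp. The 92 transgenic spots richest in a gene held 58.4% of all Thbs4 UMIs and 52.1% of all Comp UMIs, against 35.1% for Thbs1.

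Moran's I, a score deposited with the data that rises towards 1 when neighbouring spots hold like counts, again put Comp and Thbs4 above the others. In the transgenic section it was 0.67 for Comp, with 15 of 19227 genes higher, and 0.52 for Thbs4, with 123 higher. Thbs2 scored 0.25, Thbs1 0.19 and Thbs3 0.14, all above the median gene at 0.00839. In the control section the highest values were 0.04 for Thbs1 and Thbs4, and Thbs2 (0.00261) and Thbs3 (-0.00272) lay among the bulk of genes. Moran's I can grow with a gene's count as well as with its pattern, so the sections are not compared by it.

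**Figure D2:**
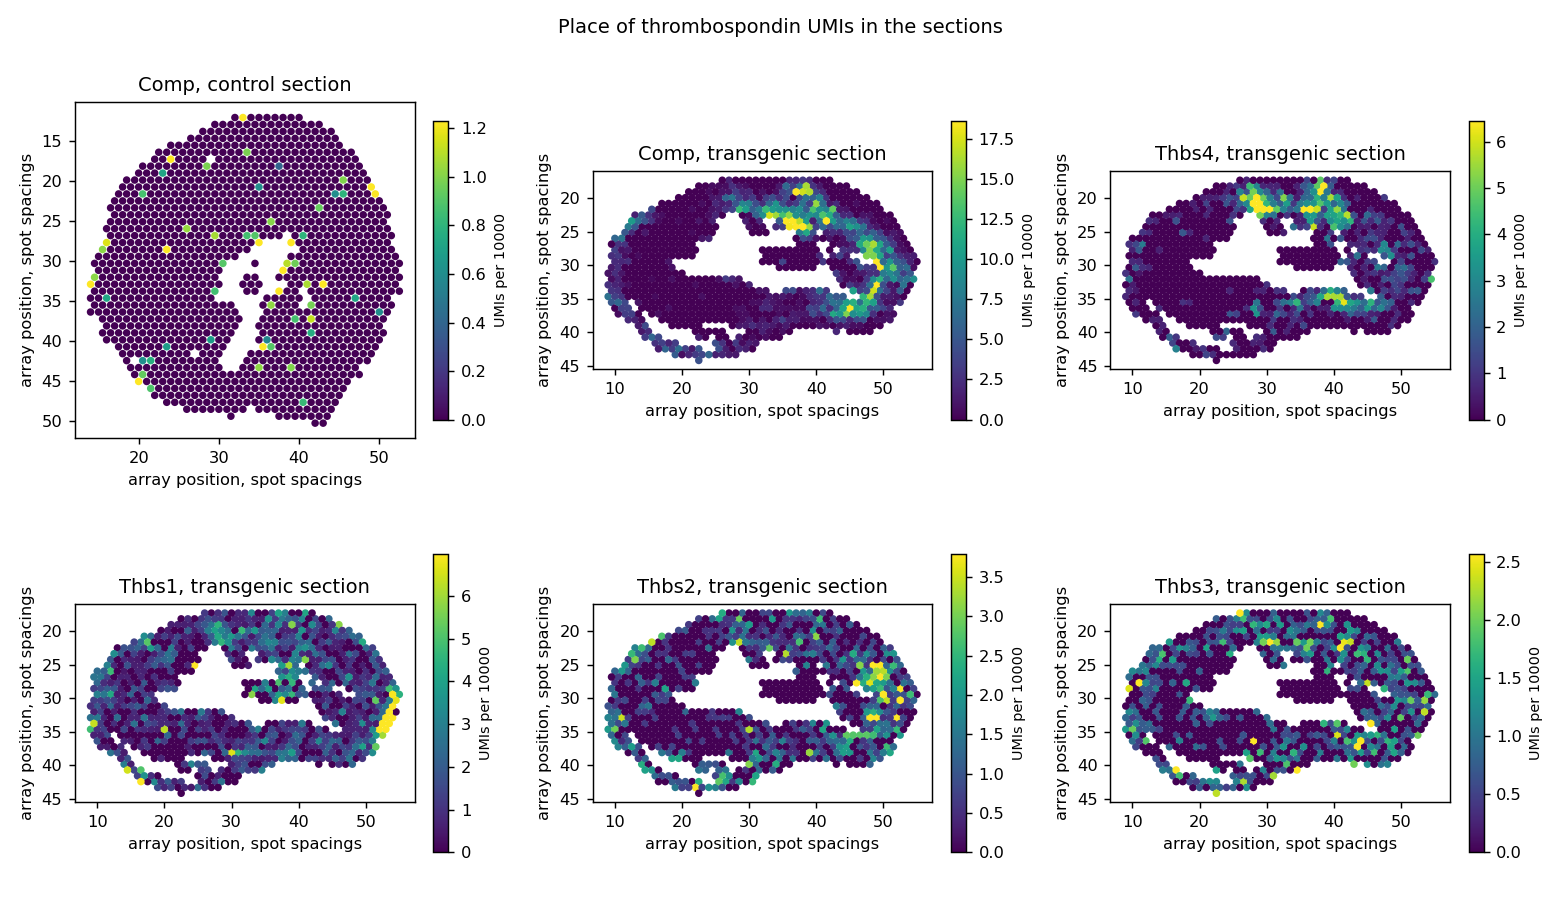
UMIs per 10000 UMIs of each spot for Comp in the control section and for the 5 members in the transgenic section, drawn at the spots' array positions in spot spacings, each panel with its own colour scale ending at the 99th percentile (at least 1). In the transgenic section Comp is brightest in the upper and right wall and Thbs4 in the upper and lower right wall, and Thbs1 has a bright strip on the right outer rim.

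Both sections were rings of tissue around a largest inner gap, which spanned 78 array places in the control and 154 in the transgenic section. Inner gaps of any size numbered 5 in the control and 8 in the transgenic section. Spots with fewer than 6 neighbours over tissue were called edge spots. There were 230 edge and 1026 interior spots in the control and 311 and 613 in the transgenic section. Counting edge spots as step 1, the deepest spot was at step 9 in the control and step 5 in the transgenic section. Steps start from gaps of any size, so they do not measure the thickness of the wall. Each wall was also divided into an outer, a middle and an inner zone of like width by distance from the outside and from the largest inner gap, a split chosen after the maps had been seen.

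In the transgenic section Thbs4 was lower at the edge than inside and Thbs1 and Thbs2 were slightly higher there. Thbs4 was at 57.7 CPM in edge and 99.1 CPM in interior spots, a log2 ratio of -0.78 [-1.004 to -0.56], and only 6 of 7590 genes had a lower one. Comp was at 224 and 280 CPM (-0.33 [-0.44 to -0.21]). Thbs1 was at 144 and 123 CPM (0.23 [0.07 to 0.38]), Thbs2 at 79.1 and 67.5 CPM (0.23 [0.02 to 0.43]) and Thbs3 at 43.9 and 51.3 CPM (-0.22 [-0.49 to 0.04]). None of the 5 differed by 2-fold, as 0.132% of genes did upward and 0.0132% downward.

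The edge combined an outer and an inner rim that differed in opposite ways for different members. The inner rim was the 178 edge spots beside any of the 8 inner gaps, not only the largest, and some lay in the outer or middle zone. On this inner rim, Thbs4 was at 78.3 CPM against 32.7 CPM on the outer rim (log2 ratio 1.26 [0.80 to 1.73]) and Comp at 283 against 152 CPM (0.89 [0.68 to 1.11]). Of 7590 genes, 26 had a higher inner over outer ratio than Thbs4 and 47 a higher one than Comp. Thbs1 ran the other way, at 105 CPM on the inner and 191 CPM on the outer rim (-0.86 [-1.12 to -0.60]), and so did Thbs2 at 65.8 and 95.2 CPM (-0.53 [-0.88 to -0.19]). Thbs3 did not separate the rims (0.05 [-0.41 to 0.52]). Thbs4 was the 1 member past 2-fold, where 0.527% of genes were higher and 0.698% lower by that much.

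The zones of the wall gave the same directions for Thbs4, Comp, Thbs1 and Thbs2, and also separated Thbs3. Thbs4 was at 47.9 CPM in the outer, 110 in the middle and 109 in the inner zone of the transgenic wall, and Comp at 185, 320 and 289 CPM. Thbs1 ran from 160 CPM in the outer to 116 in the middle and 106 in the inner zone, Thbs2 from 88.9 to 65.9 and 52.5 CPM, and Thbs3 from 54.0 to 52.3 and 37.7 CPM. Over the section as a whole, the CPM of Thbs4 and Comp was thus higher in the middle and inner zones than in the outer zone. That of Thbs1, Thbs2 and Thbs3 was highest in the outer zone. The share of spots with a UMI of Comp ran the other way, at 61.9% in the outer, 56.3% in the middle and 46.6% in the inner zone. For Thbs4 it was 35.4%, 50.0% and 38.9%. The shares of the other members also fell from the outer to the inner zone. These shares were not thinned to a common depth. The inner zone held 45 of 48 spots rich in red blood cell transcripts, described below, whose median was 4732 UMIs. The part of depth in the shares by zone was not tested. The inner over outer log2 ratios were 1.19 [0.94 to 1.43] for Thbs4, the 1 member past 2-fold (0.382% of genes higher, 0.435% lower), and 0.64 [0.50 to 0.77] for Comp. They were -0.60 [-0.79 to -0.41] for Thbs1, -0.76 [-1.03 to -0.50] for Thbs2 and -0.52 [-0.84 to -0.20] for Thbs3, against a median of -0.14 over all genes.

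**Figure D3:**
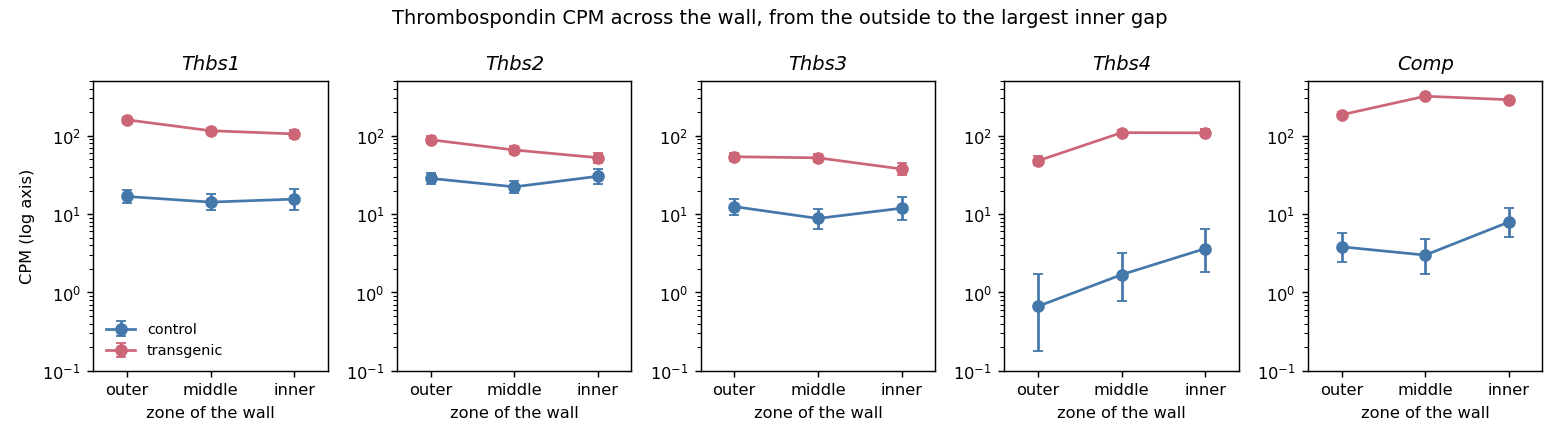
UMIs per 1000000 (log axis) of each member in the outer, middle and inner zone of the wall, in the control and the transgenic section, with exact Poisson 95% intervals. In the transgenic section Thbs4 goes from 47.9 in the outer to 109 in the inner zone and Comp from 185 to 289, while Thbs1 goes from 160 to 106.

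These gradients did not hold all the way round. Within the 4 quadrants of the transgenic section, the inner over outer log2 ratio of Comp was 1.56 [1.25 to 1.87] in the lower right, 1.47 [1.25 to 1.68] in the upper right and 0.20 [-0.16 to 0.55] in the upper left. In the lower left it turned to -3.59 [-4.41 to -2.86], with 18.6 CPM in the inner and 223 CPM in the outer zone. Thbs4 did the same, with 3.19 [2.47 to 4.01] in the lower right, 1.54 [1.05 to 2.04] in the upper left, 0.51 [0.08 to 0.94] in the upper right and -2.11 [-3.50 to -0.95] in the lower left. Thbs1, Thbs2 and Thbs3 each had a quadrant with no outward gradient, at 0.06 [-0.27 to 0.38] for Thbs1 in the upper right and at 0.16 [-0.32 to 0.65] for Thbs2 and 0.04 [-0.61 to 0.70] for Thbs3 in the lower right. In the upper left the intervals of Thbs2 (-0.48 [-1.07 to 0.09]) and Thbs3 (-0.63 [-1.31 to 0.02]) also included 0. So did that of Thbs3 in the upper right (-0.37 [-1.05 to 0.28]). An outward gradient of Thbs3 was resolved only in the lower left (-1.27 [-2.04 to -0.56]). For Thbs1 the lower right quadrant stood out, at 89.3 CPM inside and 272 CPM outside (-1.61 [-2.01 to -1.22]), where the map shows a bright strip on the rim.

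Whole quadrants of the transgenic section differed too. Comp was at 490 CPM in the upper right, 355 in the lower right, 123 in the upper left and 93.0 CPM in the lower left quadrant, against at most 5.92 CPM in any control quadrant. Thbs4 was at 131, 104, 95.4 and 24.2 CPM in the same order, against at most 2.96 CPM. Thbs1 ranged from 92.2 to 159 CPM over transgenic and up to 20.5 CPM over control quadrants. Thbs2 ranged from 51.8 to 89.5 CPM against up to 28.3 CPM, and Thbs3 from 36.0 to 58.8 CPM against up to 13.5 CPM. The share of all genes whose quadrants lie apart between the sections was not counted, so these values are not read as particular to the members. Quadrants of 1 section are not replicates.

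The richest neighbourhoods, each a spot with its 6 neighbours, lay at different places. Comp peaked at 1875 CPM (188 UMIs) in the inner zone of the upper right, and Thbs4 at 829 CPM (105 UMIs) in the inner zone of the upper left. Thbs1 peaked at 1018 CPM (73 UMIs) in the outer zone of the lower right. Thbs2 and Thbs3 peaked lower, at 325 CPM (39 UMIs) and 161 CPM (16 UMIs), both in the middle of the wall in the upper right.

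In the control section some intervals by place lay above 0 for Comp and, by zone, for Thbs4. Both rest on low counts, that of Thbs4 close to background. Comp was at 11.4 CPM in edge spots (23 UMIs) and 3.24 CPM in interior spots (40 UMIs), a log2 ratio of 1.82 [1.01 to 2.59]. Thbs4 had 6 and 18 UMIs (1.03 [-0.59 to 2.43]). Both passed 2-fold at the control edge, as 0.222% of genes did upward and 0.0415% downward, but only for Comp did the interval lie above 0, and the intervals of the other 3 members included 0. In the inner zone of the control wall Comp was at 7.93 CPM against 3.82 CPM in the outer zone (1.05 [0.17 to 1.94]), and Thbs4 had 11 UMIs against 4 (2.45 [0.70 to 4.56]). Both passed 2-fold, where 0.208% of genes were at least 2-fold higher. These shares are of genes with at least 200 UMIs in the section, a minimum that Comp (63 UMIs) and Thbs4 (24 UMIs) did not reach. Ratios from so few counts vary more, so the shares are not a like comparison for them. The inner over outer ratio of Comp did not hold all round the control ring either. It was 3.74 [1.54 to 6.95] in the lower right and 2.25 [0.19 to 4.80] in the upper right quadrant. In the upper left it was -0.19 [-2.69 to 1.77] and in the lower left -1.64 [-4.91 to 0.69].

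Some spots were rich in red blood cell transcripts, and Thbs1 was the 1 member whose share of all UMIs was higher in them. In 48 transgenic spots at least 20% of UMIs were of erythroid genes, up to 88.4% in a spot, and 45 of them lay in the inner zone. These spots were shallow, with a median of 4732 UMIs, and cardiomyocyte markers held 1.24% of their UMIs against 4.58% in the other 876 spots. Erythroid genes held 63.1% of all UMIs in these spots and 0.877% in the others, which lowers the CPM of every other gene there. A lower CPM in them therefore need not mean less of a gene relative to the non-erythroid transcripts. Levels per non-erythroid UMI were not computed. Thbs1, which platelets are known to store and release, was at 255 CPM [196 to 327] in them and 127 CPM [121 to 133] in the others. Thbs2 was at 12.3 CPM [2.55 to 36.1] against 71.9 CPM, Thbs3 at 20.6 CPM [6.68 to 48.0] against 49.8 CPM and Thbs4 at 28.8 CPM [11.6 to 59.4] against 88.6 CPM. Comp was at 210 CPM [156 to 276] against 265 CPM. The 8 platelet markers held 0.0383% of UMIs in these spots and 0.00832% in the others, and their part in the Thbs1 value was not tested. Without these spots and 8 such control spots, the transgenic over control log2 ratios were 3.03 for Thbs1, 5.73 for Thbs4 and 5.92 for Comp, all inside the intervals given above.

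The members met in the same spots of the transgenic section, Thbs4 and Comp most of all. Both were counted in 321 of 924 spots, 1.51 times the 213 expected from their separate shares, with a log2 odds ratio of 3.22 and a Spearman rho of 0.55 between their levels. Of the spots with Thbs4, 83.6% also held Comp, while 62.7% of Comp spots held Thbs4. Comp also met Thbs2 in 340 spots (262 expected, log2 odds ratio 2.05, rho 0.40) and Thbs3 in 310 spots (235 expected, 1.99, rho 0.37). The other 7 pairs had log2 odds ratios from 0.97 to 1.48, with Thbs1 and Thbs3 lowest at rho 0.10. These are descriptions over spots of 1 section, which share their library, their depth and the outline of the tissue.

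Spots with more members were deeper. Transgenic spots without any member numbered 85, at a median of 12060 UMIs, and those with all 5 members 132, at a median of 16944 UMIs. After thinning to 8000 UMIs the log2 odds ratio of Thbs4 and Comp was 2.45, and that of Thbs1 and Thbs3 was 0.27. In the control section 54.6% of spots held no member and 1 spot held all 5, against 9.20% and 14.3% in the transgenic section.

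**Figure D4:**
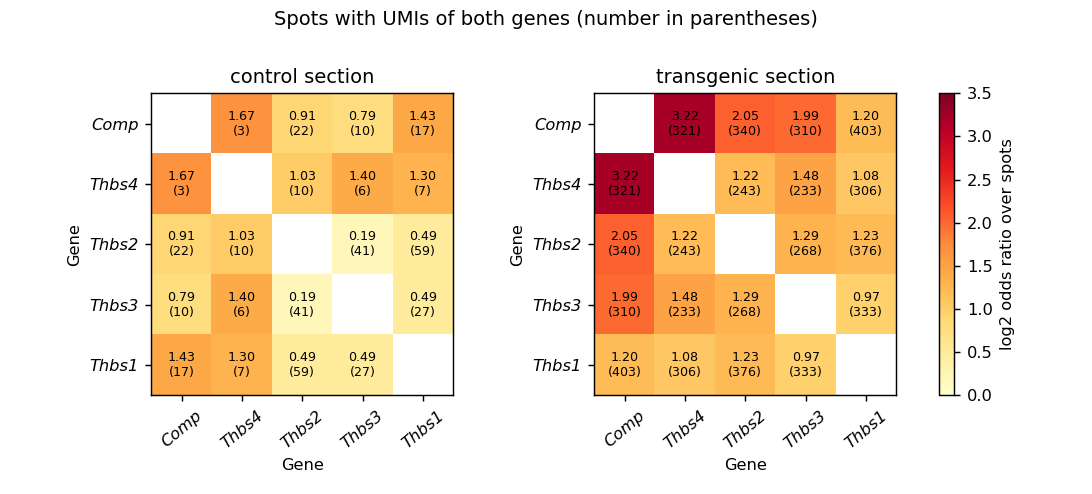
Log2 odds ratio, over all spots of a section, that a spot with a UMI of 1 gene also has a UMI of the other, for the 10 pairs in the control and the transgenic section, with the number of spots holding both in parentheses. Thbs4 and Comp stand apart in the transgenic section at 3.22 with 321 spots.

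Spots that held Comp without Thbs4 lay elsewhere. Of these 191 spots, 58.1% lay in the outer zone of the wall, while of the 321 spots with both 44.9% lay in the middle, 28.7% in the outer and 26.5% in the inner zone. Spots with both were most frequent in the upper right quadrant, which held 40.2% of them, and spots with neither in the lower left, which held 40.4%. For comparison, of all 924 transgenic spots 328 lay in the outer zone, 272 in the upper right and 255 in the lower left quadrant.

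The genes whose pattern over transgenic spots was most like that of each member also differed. Likeness was Pearson's r of levels, each spot pooled with its neighbours, over 923 spots and 7589 genes with at least 200 UMIs. Neighbouring spots share counts after pooling, so r is a description only. For Comp the leading genes were Prelp (0.87), a leucine-rich proteoglycan, Serpina3n (0.86), a protease inhibitor, Fmod (0.84), a collagen-binding proteoglycan, Serpinf1 (0.83) and Mgp (0.80), an inhibitor of calcification. For Thbs4 they were Ltbp2 (0.80), Cthrc1 (0.79), a marker of activated fibroblasts, Loxl3 (0.75), a collagen cross-linking enzyme, Postn (0.75) and Col5a2 (0.72). Comp ranked 9 for Thbs4 and Thbs4 ranked 32 for Comp, at the same r of 0.69.

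Thbs1 had no close partner. Its highest values were 0.47 for Myl9 and 0.46 for Frzb, followed by Tagln, Tgfb3 and Actb, of which Myl9, Tagln and Actb encode contractile and cytoskeletal proteins. Among the 5 genes most like Thbs2 were Prelp (0.73), C3 (0.72), Serping1 (0.71) and Ccn5 (0.71), of which C3 and Serping1 belong to the complement system. Thbs3 was most like Igfbp7 (0.69), Serpinf1 (0.68), Mgp (0.68), Mfap4 (0.68) and Ccn5 (0.67), with Comp also near the top at 0.65. Without pooling, 1 of the 5 genes stayed among the 5 for Thbs1, 2 for Thbs2 and Thbs4 and 3 for Thbs3 and Comp. Comp then ranked 1 for Thbs4 (0.56) and for Thbs3 (0.37), 2 for Thbs2 (0.41) and 38 for Thbs1 (0.20). Thbs4 then ranked 13 for Comp.

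Ranked by the marker content of transgenic spots, all 5 members were higher where fibrillar collagen was rich and lower where cardiomyocyte genes were rich. The difference was far larger for Comp and Thbs4 than for the others. In the 25% of spots richest in Col1a1, Col1a2 and Col3a1, Comp was at 487 CPM and in the poorest 25% at 10.4 CPM, a log2 ratio of 5.55 [5.03 to 6.12]. Thbs4 was at 181 and 6.60 CPM (4.78 [4.12 to 5.52]). Thbs3 followed with 2.13, Thbs2 with 2.08 and Thbs1 with 1.44. By cardiomyocyte genes, Comp was at 14.4 CPM in the richest and 701 CPM in the poorest 25% (-5.60 [-6.06 to -5.18]) and Thbs4 at 12.2 and 198 CPM (-4.02 [-4.52 to -3.55]), while the other 3 lay between -1.85 and -1.28. The 25% of transgenic spots richest in cardiomyocyte genes held more Comp and Thbs4 per 1000000 UMIs than the control section as a whole. Cardiomyocyte genes held 6.02% of UMIs in those spots, below the 7.57% in the poorest 25% of control spots. The 2 sections were thus not matched for cardiomyocyte content in this comparison.

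Other markers separated Comp from Thbs4. In the 25% of spots richest in smooth muscle genes Comp was at 480 CPM against 124 CPM in the poorest (1.95 [1.78 to 2.12]), while Thbs4 was at 91.3 and 85.8 CPM (0.09 [-0.16 to 0.34]). By fibroblast markers Comp differed by 3.63 and Thbs4 by 2.00. Both followed Nppa, the atrial natriuretic peptide of stressed cardiomyocytes, with 4.43 for Thbs4 and 3.93 for Comp, where Thbs1 differed by 0.29. By Sprr1a, a stress-induced gene of cardiomyocytes, Thbs4 differed by 2.73 and Comp by 1.89. By Myh7, the slow myosin, Thbs4 differed by -1.92 and Comp by -0.88. The rankings by fibrillar collagen, Nppa, Sprr1a and Myh7 were chosen after values had been seen.

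By fibrillar collagen, fibroblast and cardiomyocyte genes the control section ran in the same direction at far lower counts. By fibroblast markers Comp differed by 2.65 [1.39 to 4.19] and Thbs4 by 2.91 [0.79 to 6.09], with overlapping intervals. By cardiomyocyte genes they differed by -2.09 [-3.43 to -0.94] and -2.06 [-4.54 to -0.14]. By Nppa the control value was 2.78 [0.66 to 5.96] for Thbs4 and 0.93 [-0.02 to 1.93] for Comp. By smooth muscle genes, Sprr1a and Myh7 the control intervals of Comp and Thbs4 included 0, so no direction was resolved there. By fibrillar collagen the control counts were as follows. Comp had 34 UMIs in the collagen-richest and 11 in the poorest 25% of spots (1.75 [0.74 to 2.88]), Thbs4 15 and 1 (4.03 [1.33 to 9.43]) and Thbs1 80 and 32 (1.45 [0.84 to 2.09]).

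**Figure D5:**
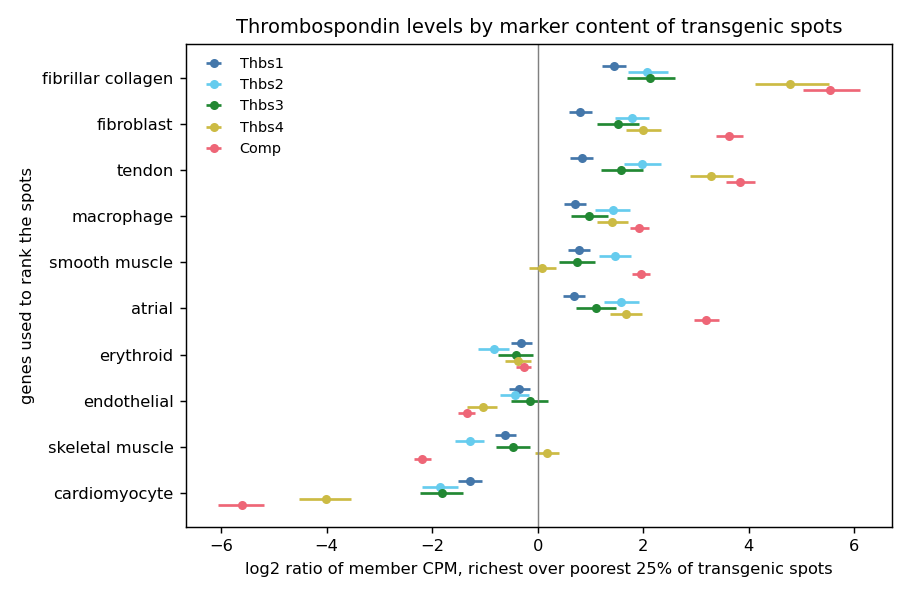
Log2 ratio of each member's UMIs per 1000000 in the 25% of transgenic spots richest in a marker list over the 25% poorest in it (230 spots each), with 95% intervals of counting error. Comp and Thbs4 lie at 5.55 and 4.78 for fibrillar collagen and at -5.60 and -4.02 for cardiomyocyte genes, and the other members lie closer to 0.

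Of 12 genes for receptors of thrombospondins, 3 were higher by 2-fold or more in the transgenic section and none 2-fold lower, with a median log2 ratio of 0.57. Of all genes, 13.7% were at least 2-fold higher and 5.61% at least 2-fold lower. The 3 were Lrp1, the endocytic receptor that clears thrombospondins (2.22 [1.96 to 2.50]), Itgb3 (1.34) and Itgb1 (1.20), integrin β subunits. Cd47 (0.43) and Cd36 (0.27), the best-known receptors of Thbs1, lay near the median of all genes. Stim1 (0.98), Itgav (0.84), Itga3 (0.68) and Itga4 (0.46) were between, and Itga6 (-0.11), Calr (-0.30) and Cacna2d1 (-0.62), the calcium channel subunit that binds thrombospondins in nerve tissue, were lowest.

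Most matrix partners were higher in the transgenic section. Of 17 such genes with at least 20 UMIs, 13 were at least 2-fold higher and none 2-fold lower, with a median of 2.01. Col9a2, a chain of the collagen IX that Comp binds in cartilage, was highest, with 7 UMIs in the control and 653 in the transgenic section (6.69 [5.64 to 8.01]). The other 4 were Col9a3 (0.94 [0.27 to 1.64]), Matn3 (0.79 [-0.52 to 2.18]), Acan (0.40 [-0.64 to 1.45]) and Hspg2, the basement membrane proteoglycan perlecan (0.26). Col9a1, with 5 UMIs in the control and 2 in the transgenic section, and Matn1, with 12 and 7, were below the minimum.

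Of 9 proteases, 6 were at least 2-fold higher and none 2-fold lower, with a median of 1.56. The 6 were Mmp14 (2.20), Adamts4 (1.86), Adamts1 (1.79), which cleaves Thbs1 and Thbs2, Mmp2 (1.67), Adamts5 (1.56) and Adamts12 (1.15). Adamts4 rests on 15 control and 49 transgenic UMIs, with an interval of 1.00 to 2.80. Adamts7 and Adamts12 are both known to cleave Comp, and Adamts7 was lower, at 283 UMIs in the control and 149 in the transgenic section (-0.78 [-1.07 to -0.48]). Mmp9 (0.15 [-0.53 to 0.83]) and Mmp13 (-0.20 [-1.18 to 0.75]), both with few UMIs, passed 2-fold in neither direction. The interval of Mmp13 reached 2-fold downward, as did that of Adamts7, while that of Mmp9 did not reach it in either direction.

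Of 9 genes of latent TGF-β and its targets, 7 were at least 2-fold higher, with a median of 2.32. Ltbp2, a latent TGF-β binding protein family member, was highest (10 and 1090 UMIs, 6.92 [6.03 to 7.98]), and Ltbp1 lowest (-0.09). Other matricellular genes gave 8 of 11 at least 2-fold higher and a median of 1.83, from Cthrc1 (6.22) to Smoc2 (0.09). The 13 measured genes of ATF6 and the endoplasmic reticulum chaperones, a pathway that Thbs4 is known to engage, behaved otherwise between the sections. None passed 2-fold in either direction, and their median of 0.21 was close to the 0.20 of all genes. Atf6 itself was highest at 0.64 and Sdf2l1 lowest at -0.65.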

How the data were processed

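Visium CytAssist data of 2 heart sections were used as the authors deposited them: UMI counts of each gene in each spot without normalization, made with Space Ranger 2.0.0 per the file headers, for spots over tissue. The submitters' processing notes list GRCm39 and mm39, bcl2fastq and Space Ranger, and the probe set is not given in the sources used here. Moran's I is a score that the authors deposited per gene and section, used as given. Images, cluster labels and deposited p-values were not used.

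The 5 members, the gene lists and the rules below were chosen with earlier results of these data known. Counts were summed per section or group of spots and expressed as CPM, that is per 1000000 of the total UMIs there. A count of 0 was bounded at 3 counts, or 0.209 CPM in control and 0.232 CPM in transgenic tissue. Single rates have exact Poisson, ratios exact conditional binomial, shares of spots Clopper-Pearson and differences between members Woolf intervals, all at 95%. Spots are not replicates, so no test was made over spots. Ratios between sections used the 15236 genes with at least 20 UMIs over both sections, and place and likeness the genes with at least 200 UMIs in the section.

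Genes named are the members, all receptors and proteases, the highest and lowest gene of each other list, the 5 genes most like each member, and Top2b and Y-linked genes as a check. Lists of receptors, matrix partners, proteases, latent TGF-β genes, ATF6 and chaperone genes, other matricellular genes and cell type markers were used. The 725 barcodes that both sections share are positions of the array. Alternatives were edgeR 4.0.16 TMM factors and DESeq2 1.42.0 size factors (R 4.3.3), totals that leave out the 50 most abundant genes, subsets of spots, thinning, other minima and other edge definitions. The calculations, checked on simulated data, used pandas 2.3.3, scipy 1.17.1 and numpy 2.4.6 in Python 3.11.15. 1 gene among those most like Thbs2 is not reported here.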

Additional observations from a re-analysis of the deposited data

Results flagged for a closer look

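Comp was higher at the edge than in the interior of the control section and lower at the edge than in the interior of the transgenic section. The log2 ratio was 1.82 [1.01 to 2.59] in the control and -0.33 [-0.44 to -0.21] in the transgenic section, a difference of -2.14 that was not tested, since each condition had 1 section. The control value rests on 23 edge UMIs, of which 14 lay beside an inner gap and 9 on the outer rim.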

How the results depend on the processing

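Every member stayed higher in the transgenic section under each alternative run. TMM factors, DESeq2 size factors and totals without the 50 most abundant genes lowered every log2 ratio by a fixed amount, shifting it by -0.16, -0.15 and -0.09. In the 50% of spots with most cardiomyocyte transcripts (628 and 462 spots) the log2 ratios were 0.67 for Thbs2, 1.68 for Thbs3, 4.85 for Thbs4 and 4.24 for Comp, so that Thbs2 no longer passed 2-fold. Away from the edge Comp was at 6.44, and with 1 CPM added Thbs4 was at 5.05. Against interior spots, outer rim spots alone gave 0.63 for Thbs1, 0.50 for Thbs2, -1.60 for Thbs4 and -0.88 for Comp, and with an edge of fewer than 5 neighbours Comp was at -0.66. Thinned to 8000 UMIs, the log2 odds ratios of co-location were 0.65 for Thbs1 and Thbs2, 0.27 for Thbs1 and Thbs3, 0.63 for Thbs2 and Thbs3, 0.69 for Thbs2 and Thbs4, 1.27 for Thbs2 and Comp, 0.79 for Thbs3 and Thbs4, 1.25 for Thbs3 and Comp and 2.45 for Thbs4 and Comp. With at least 2 UMIs per spot they were 2.02 for Thbs3 and Thbs4 and 2.42 for Thbs3 and Comp. At a minimum of 200 UMIs, 5 other matricellular genes were at least 2-fold higher, because the rest of the 8 given above did not reach that minimum. Their ratios did not change. Leaving out the spots rich in red blood cell transcripts, an alternative added after seeing the data, kept each ratio between sections and each ratio by place inside its interval. Apart from that count of matricellular genes, the cause of these shifts was not tested. No paired analysis was possible because each group had 1 section. Depth limits the control values of Thbs4 and Comp, and animals cannot be told apart from conditions.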

Other observations

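Markers of 12 cell types were counted beside the members, and none of their measured genes was at 0 in either section. Of all genes, 13.7% were at least 2-fold higher and 5.61% at least 2-fold lower in the transgenic section. Fibroblast markers were higher by 2-fold or more in 5 of 10 genes, from Mfap5 (log2 ratio 2.31) to Gsn (0.00), and all 6 erythroid genes in the matrix were, from Slc4a1 (5.06) to Alas2 (3.08). Tendon genes were higher in 4 of 6, led by Fmod (4.38) with Ogn lowest (0.18). Cartilage genes were higher in 4 of 9, from Sox9 (2.08) to Snorc (0.08), and the 12 cartilage markers, which do not include Col9a2, held 0.00208% of control and 0.00519% of transgenic UMIs (672 UMIs, against 653 for Col9a2 alone).

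Macrophage genes were at least 2-fold higher in 3 of 8 (Csf1r 1.11, Adgre1 0.55), smooth muscle genes in 2 of 8 (Cnn1 2.74, Smtn -0.95), mesothelial genes in 2 of 7 (Krt19 2.04, Upk3b -0.37) and platelet genes in 1 of 8 (Gp1bb 1.39, Gp6 -0.20), the last close to the share of all genes. Atrial genes were higher in 3 of 5 (Dkk3 4.20, Sln -0.53) and skeletal muscle genes in 4 of 7 (Tnnt3 4.57, Ckm -1.41). No endothelial gene of 8 passed 2-fold (Pecam1 0.46, Kdr -0.92). Cardiomyocyte genes were at least 2-fold lower in 5 of 9, against the 5.61% of all genes, from Tnnt2 (0.17) to Tnni3 (-1.92). The Y-linked genes Ddx3y, Eif2s3y, Uty and Kdm5d had no UMI in either section, which allows up to 0.209 and 0.232 CPM.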
